A study of Mus musculus with 16 samples.

Results

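The Ifitm family of interferon-induced transmembrane genes was described in hematopoietic stem cells (HSCs) sorted on MAC-1, an integrin whose CD11b subunit is encoded by *Itgam*. The members were the 5 rows of the count table named *Ifitm1*, *Ifitm2*, *Ifitm3*, *Ifitm6* and *Ifitm10*, out of 46078 genes in all. They were chosen by a measured value of these data, since the MAC-1low against MAC-1- difference of *Ifitm1* at 4 weeks had been seen to differ from that at steady state. The levels and differences of *Ifitm1* are therefore given as a description, with their errors and without a test. The other members were tested. Of the 5 members, 3 passed the filter on low counts (*Ifitm1*, *Ifitm2* and *Ifitm3*), and *Ifitm6* and *Ifitm10* did not.

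The cells were wild-type B6.SJL LSK SLAM HSCs (lineage-negative, cKIT+, SCA1+, CD48-, CD150+) of mouse bone marrow. Steady-state (SS) HSCs came from mice without transplantation and were split into SS MAC-1- (n = 3) and SS MAC-1low (n = 3). HSCs taken 4 weeks after 8000 donor LSK cells had been given to recipients irradiated with 900 cGy were split by gate into 4 week MAC-1- (n = 3), 4 week MAC-1low (n = 4) and 4 week MAC-1+ (n = 3). No allele was altered in any of the 5 populations. No SS MAC-1+ population was analysed here, so the MAC-1+ gate exists at 4 weeks only. The labels do not say that replicates came from separate mice, so the p-values measure the spread between these samples, which may be technical in part.

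Each of the 16 libraries held 13781278 to 28580658 counts and 14533 to 17576 genes above 0. *Itgam* ran from 0 to 5 counts for SS MAC-1- and from 15 to 30 for SS MAC-1low libraries, and at 4 weeks from 0 to 47 for MAC-1-, from 3 to 95 for MAC-1low and from 96 to 478 for MAC-1+ libraries. At least 11 of 12 HSC markers were detected in every library. The summed level of the HSC markers was 951 to 1081 CPM (counts scaled to library size) in 4 week MAC-1-, 2809 to 4129 CPM in 4 week MAC-1+ and 1836 to 2522 CPM in the other populations. Markers of megakaryocytes or platelets, summed over 8 genes, were at 4283 to 6748 CPM in 4 week MAC-1- and at 156 to 1097 CPM elsewhere. Neutrophil markers, summed over 12 genes, stood apart in 2 libraries of 4 week MAC-1+, with 7336 CPM in replicate 3 and 959.9 CPM in replicate 2, against 164 CPM in replicate 1 and 23.8 to 169 CPM in the other populations.

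IFITM proteins are small membrane proteins that hinder the fusion of enveloped viruses with the cell. IFITM3 acts mainly in endosomes and IFITM1 mainly at the cell surface. Their genes respond to interferon, which signals through receptor-bound kinases to STAT and IRF transcription factors, but stem cells are known to express some of them without infection. In the GRCm38 assembly, *Ifitm2*, *Ifitm1*, *Ifitm3* and *Ifitm6* lie in this order in a cluster of 63.1 kb on chromosome 7 (chr7:140954837-141017924), and *Ifitm10* lies 1.31 Mb beyond it. *Ifitm1* (ENSMUSG00000025491, chr7:140967221-140969825) is on the plus strand. *Ifitm2* (ENSMUSG00000060591, chr7:140954837-140955987), *Ifitm3* (ENSMUSG00000025492, chr7:141009586-141010770), *Ifitm6* (ENSMUSG00000059108, chr7:141015699-141017924) and *Ifitm10* (ENSMUSG00000045777, chr7:142325837-142373753) are on the minus strand. All 5 are protein-coding.

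The regions before the start sites of the 3 expressed members are shown because these neighbours did not move together. The sequences are from RefSeq on GRCm38.p6 and run 5′ to 3′ on the strand of the gene, from 250 bases before the start site through the first 30 transcribed bases. *Ifitm1* is shown at chr7:140967826-140968105 on the plus strand, *Ifitm2* at chr7:140955932-140956211 on the minus strand and *Ifitm3* at chr7:141010715-141010994 on the minus strand. Capitals mark matches to the core of the interferon-stimulated response element (ISRE), searched as GAAANNGAAA, and to the interferon gamma-activated site (GAS), searched as TTCNNNGAA, each on both strands.
Ifitm1: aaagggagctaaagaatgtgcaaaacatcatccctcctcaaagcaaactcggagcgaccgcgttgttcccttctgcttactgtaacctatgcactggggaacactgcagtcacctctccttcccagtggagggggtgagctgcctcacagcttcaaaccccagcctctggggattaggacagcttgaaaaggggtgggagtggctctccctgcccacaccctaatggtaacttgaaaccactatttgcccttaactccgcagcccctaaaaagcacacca
Ifitm2: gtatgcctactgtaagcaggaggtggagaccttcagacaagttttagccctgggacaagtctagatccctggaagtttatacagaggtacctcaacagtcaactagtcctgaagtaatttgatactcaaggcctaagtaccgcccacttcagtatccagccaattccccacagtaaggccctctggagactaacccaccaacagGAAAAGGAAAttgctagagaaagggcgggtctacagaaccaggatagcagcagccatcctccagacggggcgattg
Ifitm3: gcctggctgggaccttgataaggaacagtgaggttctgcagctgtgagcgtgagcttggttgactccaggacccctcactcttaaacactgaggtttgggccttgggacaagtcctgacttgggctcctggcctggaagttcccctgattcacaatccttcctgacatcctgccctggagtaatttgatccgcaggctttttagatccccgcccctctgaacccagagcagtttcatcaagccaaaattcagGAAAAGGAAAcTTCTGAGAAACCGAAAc

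The *Ifitm1* window, around the start site at chr7:140968076, held no match to either motif. It lies inside the annotated gene, which begins at chr7:140967221 and has 3 transcripts. The region before that earlier start was not searched. The *Ifitm2* window held 1 ISRE core match, 46 to 37 bases before the start site. The *Ifitm3* window held 2 ISRE core matches, 2 to 11 and 19 to 28 bases after the start site, and 1 GAS match from base 13 to base 21 that overlaps the later ISRE core. Of 32851 promoter windows of the same length, 3.28% held the ISRE core and 7.83% the GAS letters. A match describes these letters only, and a window without one says nothing about binding of a factor.

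*Ifitm1* was the member that varied most among the populations. In SS MAC-1- HSCs it was at 4110, 5162 and 4665 CPM, a mean of 4646 ± 526 (SD, n = 3). SS MAC-1low samples were at 4051, 3122 and 3922 CPM (3698 ± 503, n = 3). At 4 weeks, all MAC-1- and MAC-1low samples lay below both SS populations. Between 4 week MAC-1- and SS MAC-1-, 16.6% of all genes tested were without overlap. For the other pairs of these 4 week and SS populations the share is not given here. Samples of 4 week MAC-1- HSCs were at 689, 983 and 707 CPM (793 ± 165, n = 3), the lowest of the 5 populations. The 4 week MAC-1low samples were at 1652, 2005, 1565 and 1838 CPM (1765 ± 196, n = 4). The 4 week MAC-1+ samples were at 3438, 2975 and 2328 CPM (2914 ± 558, n = 3). At 4 weeks the level of *Ifitm1* thus stood in the order of the MAC-1 gates, with no overlap between neighbouring populations, whereas at SS the MAC-1low samples lay below the MAC-1- samples. Of all genes tested, 10.8% were without overlap between 4 week MAC-1low and 4 week MAC-1-. That share is not given here for 4 week MAC-1+ against MAC-1low. The only neighbours in the order of all 5 populations that overlapped were SS MAC-1low and 4 week MAC-1+.

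**Figure D1:**
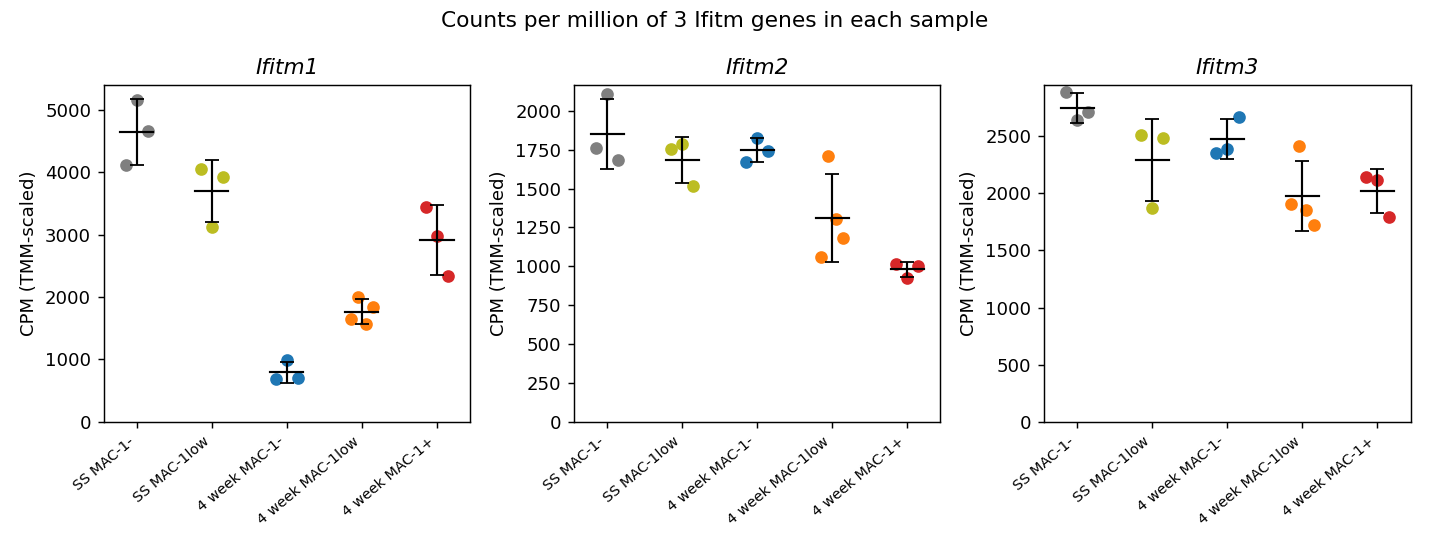
CPM scaled by TMM factors (y axis) of *Ifitm1*, *Ifitm2* and *Ifitm3* in the 5 HSC populations (x axis), with 1 point per sample and the mean ± SD in black. *Ifitm1* falls from 4646 CPM in SS MAC-1- to 793 CPM in 4 week MAC-1- and stands higher with each MAC-1 gate at 4 weeks, while *Ifitm2* is lowest in 4 week MAC-1+.

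Relative to 4 week MAC-1- HSCs, *Ifitm1* was 3.67-fold higher in 4 week MAC-1+ HSCs, a log2 fold change of 1.88 (standard error 0.18). Without replicate 3 of 4 week MAC-1+, the library highest in neutrophil markers, this log2 fold change was 2.05 (standard error 0.18), and without replicates 2 and 3 it was 2.12 (standard error 0.21). For 4 week MAC-1low compared with 4 week MAC-1- the log2 fold change was 1.15 (standard error 0.17), and for MAC-1+ against MAC-1low it was 0.72 (standard error 0.16). For SS MAC-1low against SS MAC-1- it was -0.33 (standard error 0.17). The MAC-1low against MAC-1- difference was therefore 1.48 higher on the log2 scale at 4 weeks than at SS (standard error 0.24), the value on which the gene had been chosen. Over 22 alternative analyses of the same samples this value ran from 1.39 to 1.67, which is no independent support for it.

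Between 4 week and SS HSCs, the MAC-1- gate held the widest gap. SS mice had no transplantation, so transplantation, irradiation of the recipients and any difference between the sorts cannot be told apart here. *Ifitm1* in 4 week MAC-1- HSCs was at 0.171 times its SS MAC-1- level (log2 fold change -2.55, standard error 0.18). In the MAC-1low gate the 4 week to SS log2 fold change was -1.07 (standard error 0.16). The 4 week MAC-1+ samples differed from SS MAC-1- by -0.67 (standard error 0.17) and from SS MAC-1low by -0.34 (standard error 0.17), both on the log2 scale. The comparisons share samples, and 4 week MAC-1- enters most of the wide ones. In that population the megakaryocyte or platelet markers were at their highest and the HSC markers at their lowest, and the part of either in the *Ifitm1* level was not tested. In bulk RNA, fewer cells that express a gene and less RNA per cell cannot be told apart.

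*Ifitm2* moved in a different way. Its SS MAC-1- samples were at 1760, 2107 and 1682 CPM (1850 ± 226, n = 3), and its SS MAC-1low samples were at 1756, 1784 and 1514 CPM (1685 ± 149, n = 3). The 4 week MAC-1- samples, at 1672, 1827 and 1741 CPM (1747 ± 77.7, n = 3), lay in the same range. This was the population in which *Ifitm1* was lowest. In 4 week MAC-1low HSCs *Ifitm2* was at 1058, 1710, 1301 and 1183 CPM (1313 ± 283, n = 4). Samples of 4 week MAC-1+ HSCs were at 1014, 925 and 1003 CPM (981 ± 48.7, n = 3), below every sample of the other 4 populations. The share of all genes set apart in this way from the other 4 is not given here, so the separation is a description. From SS MAC-1- through 4 week MAC-1- and SS MAC-1low to 4 week MAC-1low the means fell, each overlapping the next, and 4 week MAC-1+ stood last.

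Of the 3 expressed members, *Ifitm3* had population means that varied least. SS MAC-1- samples were at 2889, 2640 and 2715 CPM (2748 ± 128, n = 3), and SS MAC-1low samples were at 2514, 1874 and 2489 CPM (2292 ± 362, n = 3). For 4 week MAC-1- HSCs it was at 2353, 2393 and 2674 CPM (2473 ± 175, n = 3). The 4 week MAC-1low samples were at 1907, 2419, 1852 and 1721 CPM (1975 ± 306, n = 4), and the 4 week MAC-1+ samples at 2148, 2114 and 1796 CPM (2019 ± 194, n = 3). From SS MAC-1- through 4 week MAC-1-, SS MAC-1low and 4 week MAC-1+ to 4 week MAC-1low, the means of *Ifitm3* fell in this order. Each population overlapped the next.

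Tests were run with edgeR's quasi-likelihood method, and a gene was called at a Benjamini-Hochberg adjusted p below 0.1 over all 13661 genes tested. In 4 week MAC-1+ compared with 4 week MAC-1- HSCs, *Ifitm2* was lower (log2 fold change -0.83, standard error 0.16, adjusted p = 0.0123), in a comparison in which 3.25% of all genes were called. Leaving out replicate 3 of 4 week MAC-1+ gave an adjusted p of 0.0624, and leaving out replicate 2 gave 0.0817 (edgeR). Without both of these libraries, the highest in neutrophil markers, the call was lost with an adjusted p of 0.270 from edgeR, at -0.78 on the log2 scale (standard error 0.24), where 0.533% of genes were called and the 1 sample left was assumed to vary like the other groups. The 4 week MAC-1+ samples also stood apart in HSC markers and in erythroblast markers, summed over 8 genes (79.2 to 178 CPM, against 17.1 to 59.8 CPM elsewhere). Their T or NK cell markers, summed over 10 genes, were at 16.1 to 176 CPM, against 217 to 644 CPM elsewhere. Most of this sum came from 1 gene, *Nkg7*, in every library, so it describes mainly that gene. *Nkg7* alone overlapped, at 176 CPM in 4 week MAC-1+ replicate 3 and 130 CPM in 4 week MAC-1low replicate 1. The part of these marker transcripts in the *Ifitm2* level was not tested. *Ifitm3* was not called (log2 fold change -0.29, 95% interval -0.60 to 0.01, adjusted p = 0.397, edgeR). In this pair of populations the samples of all 3 members were without overlap, *Ifitm1* higher and *Ifitm2* and *Ifitm3* lower in MAC-1+, and 21.7% of all genes tested were without overlap too.

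The 4 week MAC-1+ samples also had less *Ifitm2* than both SS populations. Against SS MAC-1- the log2 fold change was -0.92 (standard error 0.16, adjusted p = 0.0116, edgeR), where 2.36% of genes were called, and fitting only these 2 groups gave an adjusted p of 0.131. Against SS MAC-1low it was -0.78 (standard error 0.16, adjusted p = 0.0473, edgeR), where 1.42% of genes were called. This last call was lost when only the 2 groups were fitted (adjusted p = 0.227, edgeR). It was also lost without SS MAC-1low replicate 1 (0.124) or 2 (0.162), or without 4 week MAC-1+ replicate 1 (0.109), 2 (0.131) or 3 (0.120), in each case as an adjusted p from edgeR. Without 4 week MAC-1+ replicates 2 and 3 together, the adjusted p from edgeR was 0.210 for the comparison with SS MAC-1- and 0.325 for that with SS MAC-1low, at log2 fold changes of -0.87 and -0.74. *Ifitm3* was not called in either comparison (log2 fold change -0.44, 95% interval -0.75 to -0.14, adjusted p = 0.172, and -0.18, 95% interval -0.49 to 0.12, adjusted p = 0.689, edgeR).

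In 4 week MAC-1low compared with 4 week MAC-1- HSCs 0 of *Ifitm2* and *Ifitm3* were called by edgeR, and 0.278% of all genes were. Their log2 fold changes were -0.41 (standard error 0.15, adjusted p = 0.544) and -0.32 (standard error 0.13, adjusted p = 0.609). Both had an unadjusted p below 0.05 in edgeR, as did 7.25% of all genes. DESeq2 called 0 of the 2 and limma-voom called 1, *Ifitm2* (adjusted p = 0.0611). Here *Ifitm1*, chosen on a value that includes this pair, was the 1 member without overlap, as were 10.8% of all genes. In 4 week MAC-1+ compared with 4 week MAC-1low HSCs 0% of all genes were called by edgeR. *Ifitm2* had a log2 fold change of -0.42 (standard error 0.15, adjusted p = 0.630) with an unadjusted p below 0.05, and *Ifitm3* one of 0.03 (95% interval -0.25 to 0.32). DESeq2 and limma-voom called 0 of the 2 there.

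Between SS MAC-1low and SS MAC-1-, where edgeR called 0.0146% of genes, the log2 fold changes were -0.13 (standard error 0.16, adjusted p = 0.897) for *Ifitm2* and -0.26 (standard error 0.14, adjusted p = 0.590) for *Ifitm3*. *Ifitm1*, chosen on a value that includes this pair, and *Ifitm3* were without overlap, both lower in MAC-1low, as were 11.3% of all genes in either direction. Between 4 week MAC-1- and SS MAC-1- (0.432% of genes called) they were -0.08 (standard error 0.16, adjusted p = 0.947) and -0.15 (standard error 0.14, adjusted p = 0.802). In this pair *Ifitm1*, chosen on a value that uses these samples, was the 1 member without overlap, and 16.6% of all genes were. Between 4 week MAC-1low and SS MAC-1low (0.0439% of genes called) they were -0.36 (standard error 0.15, adjusted p = 0.526) and -0.22 (standard error 0.13, adjusted p = 0.686). In these 3 comparisons edgeR, DESeq2 and limma-voom each called 0 of *Ifitm2* and *Ifitm3*, and *Ifitm2* in the last was the 1 value with an unadjusted p below 0.05.

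The MAC-1low against MAC-1- difference did not pass the test of a change between 4 weeks and SS for the 2 members that were tested on it, a test in which 0.0586% of all genes were called. The change was -0.28 on the log2 scale for *Ifitm2* (standard error 0.21, adjusted p = 0.805) and -0.06 for *Ifitm3* (standard error 0.20, 95% interval -0.48 to 0.35), with 0 of the 2 at an unadjusted p below 0.05 in edgeR and 0 called by DESeq2 or limma-voom. In the test of any difference among the 5 populations, which called 2.22% of genes, *Ifitm2* passed (adjusted p = 0.0297, edgeR) and *Ifitm3* did not (adjusted p = 0.244). The call of *Ifitm2* was lost without 4 week MAC-1+ replicate 2 (adjusted p = 0.107) or replicate 3 (adjusted p = 0.101), and *Ifitm3* was called without 4 week MAC-1low replicate 2 (adjusted p = 0.0953).

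**Figure D2:**
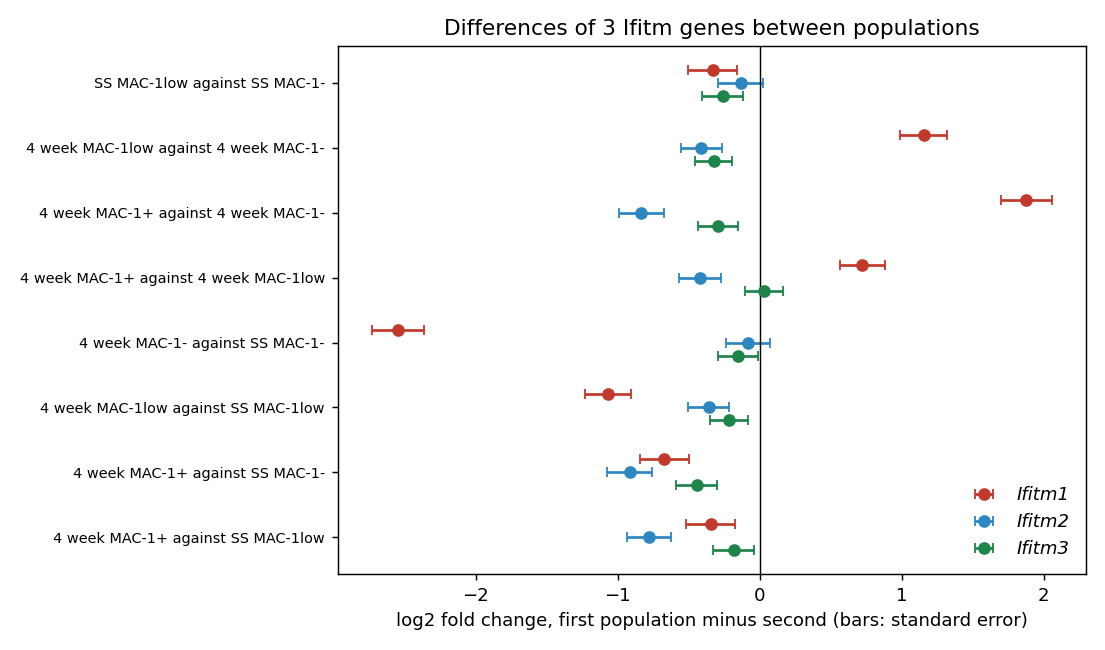
Log2 fold changes (x axis) of *Ifitm1*, *Ifitm2* and *Ifitm3* in 8 comparisons of populations (y axis), with bars of 1 standard error. *Ifitm1* spans -2.55 to 1.88, whereas *Ifitm2* and *Ifitm3* stay between -0.92 and 0.03.

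Because the 3 genes were counted in the same libraries, their shares of the reads do not depend on the scaling between samples. *Ifitm1* gave 46.9%, 52.1% and 51.5% of the *Ifitm1*, *Ifitm2* and *Ifitm3* reads in SS MAC-1- samples and 48.7%, 46.0% and 49.5% in SS MAC-1low samples. In 4 week MAC-1- samples it gave 14.6%, 18.9% and 13.8%. The 4 week MAC-1low samples were at 35.8%, 32.7%, 33.2% and 38.8%, and the 4 week MAC-1+ samples at 52.1%, 49.5% and 45.4%. The share in 4 week MAC-1+ HSCs (49.0 ± 3.4%, n = 3) thus lay in the range of the SS populations, and the share in 4 week MAC-1- HSCs (15.8 ± 2.7%, n = 3) lay below all others. The ratio of *Ifitm2* to *Ifitm3* reads ran from 0.663 to 0.753 in the population means other than 4 week MAC-1+, where it was 0.489 ± 0.062 (SD, n = 3). Single samples overlapped, at 0.558 in 4 week MAC-1+ replicate 3 and 0.555 in 4 week MAC-1low replicate 1. Together the 3 genes took 0.896% of all counts among SS MAC-1- and 0.815% among SS MAC-1low samples. At 4 weeks they took 0.468% in MAC-1-, 0.506% in MAC-1low and 0.609% in MAC-1+ HSCs.

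**Figure D3:**
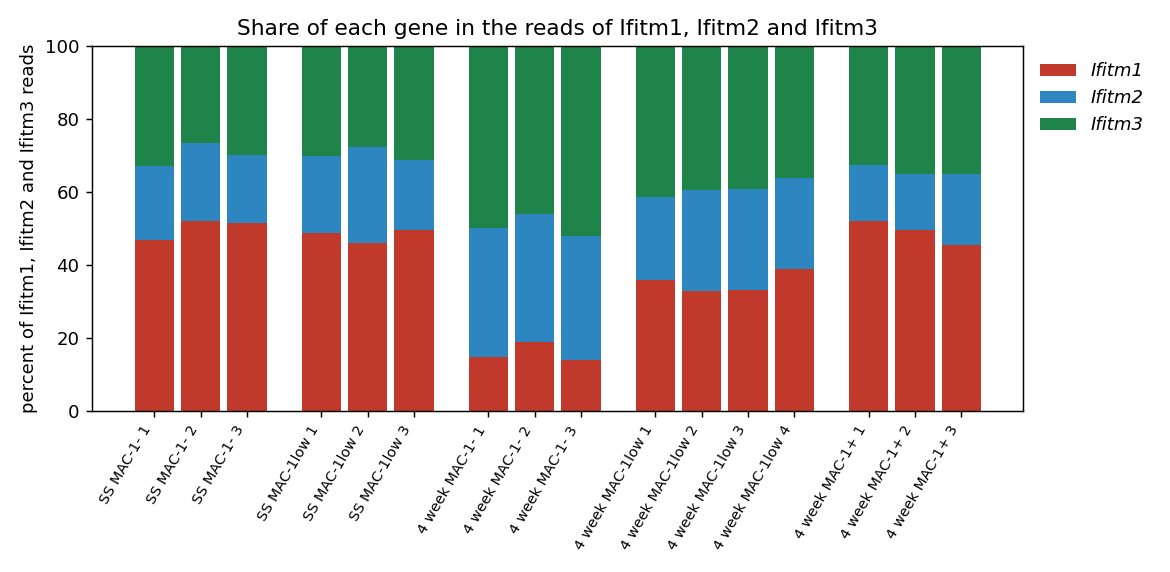
Percent of the reads of *Ifitm1*, *Ifitm2* and *Ifitm3* (y axis) that each gene gave in the 16 samples (x axis, 1 bar per sample). *Ifitm1* gives 13.8% to 18.9% in the 4 week MAC-1- samples and 32.7% to 52.1% in all other samples.

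To compare genes with each other, CPM were divided by the kilobases of annotated exons (RPKM), pooled over all transcripts of a gene. *Ifitm1* has 3 annotated transcripts and *Ifitm2* and *Ifitm3* have 1 each, which could lower *Ifitm1* on this scale. On this scale *Ifitm1*, with 1094 exon bases, and *Ifitm3*, with 678, were at 4246 ± 481 and 4053 ± 189 RPKM in SS MAC-1- HSCs, and *Ifitm2*, with 655, was at 2824 ± 346 RPKM. Each of the 3 was among the 16 genes with the highest counts per length in every SS MAC-1- library, out of 45229 with a length. In 4 week MAC-1- HSCs *Ifitm3* was at 3648 ± 258, *Ifitm2* at 2667 ± 119 and *Ifitm1* at 725 ± 151 RPKM. There *Ifitm1* ranked 88 to 122 per library, and *Ifitm3* 7 to 10. In 4 week MAC-1+ HSCs *Ifitm3* and *Ifitm1* were at 2978 ± 287 and 2663 ± 510 RPKM, which overlap, and *Ifitm2* was at 1497 ± 74.4 RPKM.

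Over the 16 samples the log2 CPM of *Ifitm2* and *Ifitm3* had a Pearson r of 0.68 (Spearman rho 0.59), those of *Ifitm1* and *Ifitm3* one of 0.19 (rho 0.45) and those of *Ifitm1* and *Ifitm2* one of 0.01 (rho 0.22). Taken as deviations from the population means, the values were 0.30 for *Ifitm2* and *Ifitm3*, 0.48 for *Ifitm1* and *Ifitm3* and 0.31 for *Ifitm1* and *Ifitm2*, so that the pooled order of the pairs did not hold within populations. The samples are scaled by the same factors, and these values are a description. Reads could be shared between near copies. Of the stretches of 50 bases in transcripts of *Ifitm1*, 5.02% also occur in a transcript of another gene of the table, against 20.8% for *Ifitm2* and 10.02% for *Ifitm3*. None of those of *Ifitm6* do. A further transcript annotated across *Ifitm2*, *Gm45717*, has no row in the table. How reads of such stretches were assigned is not given in the sources used here, so the level of *Ifitm2* is the least certain of the 3.

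*Ifitm6* was detected in 1 library. It had 648 counts (25.6 CPM) in 4 week MAC-1+ replicate 3 and 0 counts in each of the other 15 samples, where a count of 0 allows up to 3 counts. That library was the highest in neutrophil markers. *S100a8*, a calcium-binding protein of neutrophils, had 98876 counts in it, against 1987 and 7403 in replicates 1 and 2. *Elane*, the neutrophil elastase, had 4978 counts and *Mpo*, the myeloperoxidase of neutrophil granules, had 4038, and both were at 0 in replicates 1 and 2. In replicate 3, 11 of the 12 neutrophil markers were above 0, against 5 and 9 in the others. *Mmp8* was at 0 in it, with 3 counts in each of replicates 1 and 2, and *Cxcr2* was no higher than in replicate 2 (1.86 and 2.39 CPM). The library also held the monocyte marker *Ly6c2*, at 2736 counts against 4 and 0 in replicates 1 and 2. Monocyte or macrophage markers, summed over 10 genes, were at 848 CPM in it, against 718 and 715 CPM. The part of such transcripts in the *Ifitm6* count was not tested. *Ifitm10* had 9 counts in all, 1 to 3 each in 5 libraries and 0 in 11, and no level can be given for it at this depth.

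**Figure D4:**
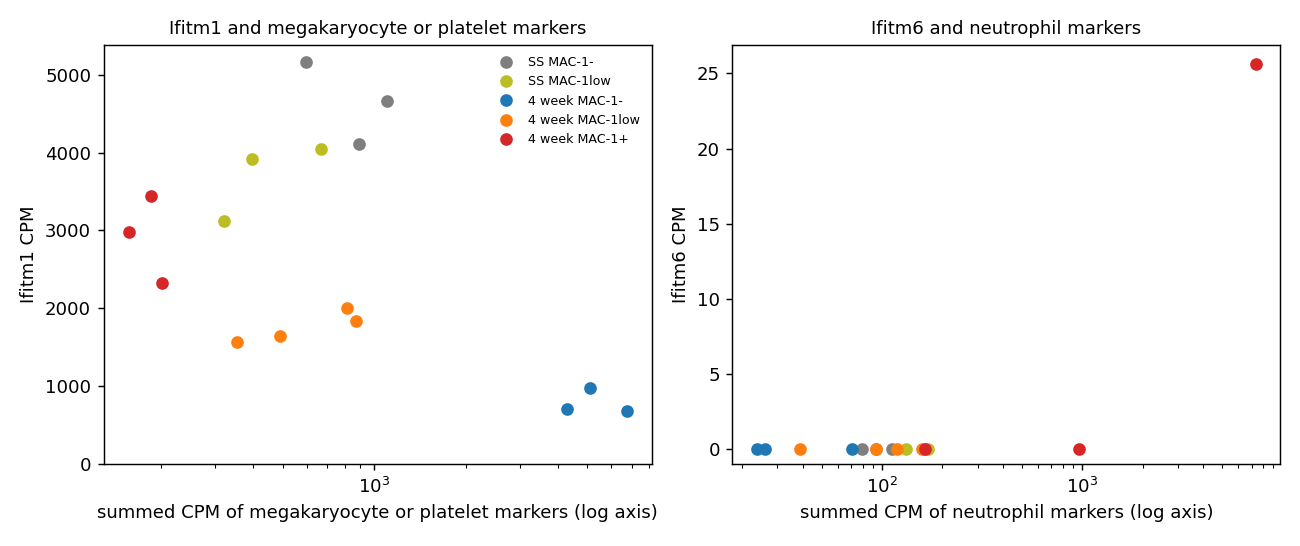
Left, *Ifitm1* CPM (y axis) against the summed CPM of megakaryocyte or platelet markers (log x axis), and right, *Ifitm6* CPM against the summed CPM of neutrophil markers (log x axis), with 1 point per sample colored by population. The 4 week MAC-1- samples have the lowest *Ifitm1* and the highest megakaryocyte or platelet markers, and *Ifitm6* is above 0 only in the sample with 7336 CPM of neutrophil markers.

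Other genes of the family were sparse. *Ifitm5*, a gene of bone-forming cells that lies 4546 bases beside the cluster, had 101 and 120 counts in 1 sample each of the MAC-1- and MAC-1low gates at 4 weeks and at most 22 in any other. *Ifitm7*, on another chromosome, ran from 0 to 293 counts and was at 0 in all 3 samples of 4 week MAC-1-. Of the 10 annotated genes nearest to the cluster, 5 on each side, 8 had a row in the table and 5 were tested (*Ifitm5*, *Athl1*, *B4galnt4*, *Pkp3* and *Sigirr*). With edgeR, 0 of these 5 were called in any comparison, where 0% to 3.25% of all genes were, so 0 of 5 is near that share. Population means of *Ifitm5*, *Athl1*, *B4galnt4* and *Pkp3* were at most 14.5 CPM, and a change in them could be missed. The smallest unadjusted p among them was above 0.05. *Sigirr*, an inhibitory receptor of the interleukin-1 receptor family, was at 10.6 ± 3.4 CPM in 4 week MAC-1- and 42.4 ± 32.7 CPM in 4 week MAC-1+ (n = 3 each), a log2 fold change of 2.00 with a standard error of 1.01.

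The genes whose log2 CPM followed *Ifitm1* most closely over the 16 samples, among 11067 genes with a mean of at least 50 counts, were *Gm7676* (Pearson r 0.97), *RP23-329A21.3* (0.91), *Fth1* (0.90), *Lst1* (0.89) and *Gstm1* (0.88). Within populations the r of these genes with *Ifitm1* was 0.70, 0.31, 0.31, 0.47 and 0.34, in the same order, so the likeness rests largely on the population means. *Gm7676* shares 14.4% of its 50-base stretches with *Ifitm1* and had a mean of 94.1 counts per sample. Its level ran from 1.80 ± 0.34 CPM in 4 week MAC-1- to 8.49 ± 1.53 CPM in SS MAC-1- HSCs (n = 3 each), and whether its reads came from *Ifitm1* was not tested. *Fth1* encodes the heavy chain of ferritin, which stores iron, and was at 1149 ± 70.4 CPM in 4 week MAC-1-, 1648 ± 166 CPM in 4 week MAC-1+ and 1857 ± 230 CPM in SS MAC-1-. *Gstm1*, a glutathione transferase, was at 91.7 ± 6.0 CPM in 4 week MAC-1-, 331 ± 24.1 CPM in 4 week MAC-1+ and 411 ± 174 CPM in SS MAC-1-. For *Ifitm3* the closest were *Fam110c* (0.88), *Tmem258* (0.87), *1810037I17Rik* (0.84), *Mzt2* (0.84) and *Pyurf* (0.82), with an r within populations of 0.87, 0.83, 0.61, 0.73 and 0.58.

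The other genes of interferon signaling were read from lists. The 9 interferon genes listed as ligands, among them *Ifnb1* and *Ifng*, had at most 3 counts in any library, and 0 of them could be tested. All 7 genes for receptors and kinases were tested. Of these, *Jak1*, the kinase shared by interferon receptors of both types, was called in 1 comparison, higher in 4 week MAC-1+ (611 ± 127 CPM) than in SS MAC-1- (289 ± 66.0 CPM), by 1.08 on the log2 scale (adjusted p = 0.0595, edgeR). There edgeR called 2.36% of all genes, and of the 7 listed genes DESeq2 called 1 and limma-voom 0. Among 9 transcription factors, *Irf2* was higher in 4 week MAC-1+ (127 ± 25.6 CPM) than in 4 week MAC-1- HSCs (35.1 ± 1.4 CPM), by 1.85 on the log2 scale (adjusted p = 0.0133, edgeR). Of all genes, 3.25% were called there by edgeR, and DESeq2 and limma-voom each called 3 of the 9. For *Jak1* and *Irf2*, fits without the 4 week MAC-1+ libraries high in neutrophil markers are not given here. In that comparison 8 of the 9 had a positive log2 fold change and the median was 1.34, against 0.07 over all genes tested. Between the MAC-1- populations of 4 weeks and SS, 1 of the 9 had a positive log2 fold change and the median was -0.97, with 0 called by edgeR or limma-voom, 2 at an unadjusted p below 0.05 and 2 called by DESeq2. Over all genes, 10.4% had such an unadjusted p in edgeR and DESeq2 called 1080 of 13680.

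The list of 50 other interferon-stimulated genes was tested in full. In 4 week MAC-1+ compared with 4 week MAC-1- HSCs, 6 were called higher and 1 lower (3.25% of all genes were called in either direction), 42 had a positive log2 fold change, and the median was 0.70, against 0.07 over all genes. *Ly6a*, which encodes the SCA1 antigen that was also part of the sorting gate, was at 238 ± 32.0 and 1059.9 ± 362 CPM (log2 fold change 2.16, adjusted p = 0.00397, edgeR). The guanylate-binding protein gene *Gbp2* was at 37.7 ± 17.8 and 209 ± 109 CPM (log2 fold change 2.47, adjusted p = 0.0186, edgeR). *Iigp1*, an interferon-inducible GTPase, was at 81.1 ± 19.3 and 395 ± 110 CPM (log2 fold change 2.28, adjusted p = 0.0327, edgeR). The 1 gene called lower was *Lgals9*, which encodes galectin 9, at 623 ± 25.1 and 154 ± 81.8 CPM (log2 fold change -2.02, adjusted p = 0.00843, edgeR). Without 4 week MAC-1+ replicate 3, 4 of the 50 were called (*Gbp2*, *Gbp7*, *Lgals9* and *Ly6a*), where 1.76% of all genes were. Without replicates 2 and 3, 3 were called (*Gbp2*, *Lgals9* and *Ly6a*), where 0.533% of all genes were.

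Against the SS populations, 3 of the 50 were called in 4 week MAC-1+ HSCs in each comparison, all higher, beside 2.36% of all genes compared with SS MAC-1- and 1.42% compared with SS MAC-1low. Against SS MAC-1- these were *Ly6a*, *Iigp1* and *Parp9* (log2 fold changes 1.71, 2.30 and 2.51), and against SS MAC-1low *Iigp1*, *Ifi27l2a* and *Ly6a* (2.44, 2.40 and 1.31). Without 4 week MAC-1+ replicate 3 the counts were 2 (*Lgals9*, lower, and *Ly6a*, higher) and 1 (*Ly6a*), beside 1.31% and 0.502% of all genes. Without replicates 2 and 3 edgeR called 1 (*Ly6a*) and 0, with 14 and 18 at an unadjusted p below 0.05, beside 0.297% and 0.333% of all genes. In 4 week MAC-1low compared with 4 week MAC-1-, where *Ifitm1* also stood higher, edgeR called 0 of the 50, with 9 at an unadjusted p below 0.05 and 4 called by each of DESeq2 and limma-voom. Over all genes, 7.25% had such an unadjusted p in edgeR, DESeq2 called 565 of 13680 and limma-voom called 319 of 13661. The median log2 fold change there was 0.64, against 0.05 over all genes, and 41 of 50 were positive. Between 4 week MAC-1- and SS MAC-1-, where *Ifitm1* had its widest difference, edgeR called 0 of the 50 (3 at an unadjusted p below 0.05, 2 called by DESeq2 and 0 by limma-voom). Of all genes in this comparison, 10.4% had such an unadjusted p in edgeR, DESeq2 called 1080 of 13680 and limma-voom called 87 of 13661. There 27 of 50 were positive and the median was 0.18, against -0.03 over all genes and -2.55 for *Ifitm1*.

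**Figure D5:**
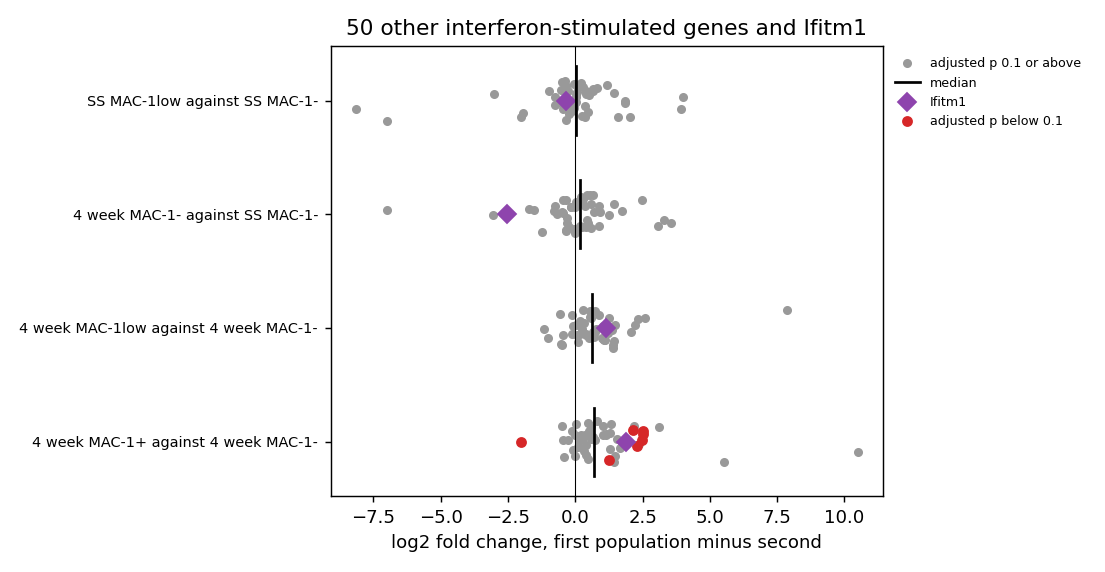
Log2 fold changes (x axis) of 50 other interferon-stimulated genes in 4 comparisons (y axis), with 1 point per gene, red at an adjusted p below 0.1, a black line at the median and a purple diamond for *Ifitm1*. The median is 0.70 in 4 week MAC-1+ compared with 4 week MAC-1- and 0.18 in 4 week MAC-1- against SS MAC-1-, where *Ifitm1* is at -2.55.

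The 6 genes for partners and modifiers of IFITM proteins, such as *Cd81*, a tetraspanin of the cell surface, were all tested. In 4 week MAC-1+ compared with 4 week MAC-1- HSCs edgeR called 0 of them, with 2 at an unadjusted p below 0.05, 2 called by DESeq2 and 1 by limma-voom. Over all genes, 13.4% had such an unadjusted p in edgeR, DESeq2 called 1591 of 14067 and limma-voom called 891 of 13661. The 2 with an unadjusted p below 0.05 were *Cd9*, a tetraspanin, with a log2 fold change of -0.99 (standard error 0.32, adjusted p = 0.169, edgeR), and *Zdhhc20*, an enzyme that attaches palmitate to proteins, with one of 1.05 (standard error 0.35, adjusted p = 0.176, edgeR). *Cd9* was at 562 ± 179 CPM in 4 week MAC-1- and 284 ± 77.3 CPM in 4 week MAC-1+, and *Zdhhc20* at 110 ± 29.5 and 229 ± 20.7 CPM. *Cd81* was at 273 ± 32.4 CPM in 4 week MAC-1- and 209 ± 46.5 CPM in 4 week MAC-1+ (n = 3 each). Of 5 feedback inhibitors of the pathway, 0 were called by edgeR, DESeq2 or limma-voom in that comparison, with 0 at an unadjusted p below 0.05.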

How the data were processed

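RNA of sorted HSCs was amplified with SMART-Seq v4, which copies whole transcripts without molecular identifiers or strand, and Nextera XT libraries were sequenced. The authors deposited 1 table of counts, whole numbers of reads per gene without normalization, made with an nf-core pipeline and STAR. Which program counted reads, and on which genome build, is not given in the sources used here. Samples were grouped by their titles.

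In R 4.3.3, edgeR 4.0.16 (TMM factors, default filter on low counts, robust quasi-likelihood test) was fitted to all 16 samples in 1 model with 5 populations. Calls used adjusted p below 0.1. CPM were TMM-scaled, with a prior count of 2 on the log2 scale. Intervals of log2 fold changes are 95% t intervals of the fit. DESeq2 1.42.0 and limma 3.58.1 were alternatives. The tests were first run on simulated counts. Coordinates and exon lengths came from GENCODE M21 on GRCm38, in which 45229 of 46078 identifiers were found. The floor of 3 counts at a count of 0 covers counting error only.

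The members and lists were chosen with earlier results of these data known. Besides members, genes were named for likeness to *Ifitm1* or *Ifitm3* (5 each), as neighbours (5 per side), or as called list members (at most 3 per direction and comparison by smallest p). Cell markers, *Cd9*, *Zdhhc20* and *Cd81* were chosen after their values were seen.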

Additional observations from a re-analysis of the deposited data

Results flagged for a closer look

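In 4 week MAC-1low HSCs, the population with 4 samples, 7 measures were looked at for a sample far from the others, and 2 had one. A gap this wide arises by chance in about 1 of 20 groups. The ratio of *Ifitm1* to *Ifitm3* reads was 1.07 in replicate 4 and at most 0.867 in the other 3 samples, a gap of 0.842 of the whole range. The ratio of *Ifitm2* to *Ifitm3* reads was 0.555 in replicate 1 and 0.687 to 0.707 in the other 3, a gap of 0.872 of the whole range.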

How the results depend on the processing

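The 4 week to SS change in the MAC-1low against MAC-1- difference of *Ifitm1* ran from 1.39 to 1.67 over 22 alternatives. It was 1.46 with the replicate block. The gene was chosen on this value in the same samples, so the range describes the processing and is no support for the difference. Some alternatives left out a MAC-1+ sample, which does not enter this difference. Samples with the same replicate number in their titles did not deviate together (r from -0.02 to 0.04 over 30 pairs), so these numbers were not taken as pairs. Whether other samples were sorted together is not stated, and no other pairing was tested. The replicate block changed no call of *Ifitm2* or *Ifitm3*. The count of members called, out of *Ifitm2* and *Ifitm3*, moved in 5 comparisons. It was 1 in place of 0 with limma-voom for 4 week MAC-1low compared with 4 week MAC-1-. Fitting only the groups compared gave 0 in place of 1 for 4 week MAC-1+ compared with either SS population, and leaving out 1 sample at a time gave 0 to 1 for SS MAC-1low. For any difference among the populations, leaving out 1 sample gave 0 to 2 in place of 1, and no filter on low counts gave 2, *Ifitm2* and *Ifitm6* (adjusted p = 0.0112, edgeR), which rests on 1 library. Leaving out 4 week MAC-1+ replicates 2 and 3 together, also chosen after seeing the data, gave 0 in place of 1 in all 3 comparisons of MAC-1+ with the MAC-1- gate at 4 weeks and with the SS populations. The causes were not tested, other than that fewer samples were fitted. The count of 50 interferon-stimulated genes, redone after seeing the data without 4 week MAC-1+ replicate 3, went from 7 to 4, from 3 to 2 and from 3 to 1 compared with 4 week MAC-1-, SS MAC-1- and SS MAC-1low, and without replicates 2 and 3 to 3, 1 and 0. The counts of calls over all genes differed more between tools. For 4 week MAC-1+ compared with 4 week MAC-1-, edgeR called 444, limma-voom 891 and DESeq2 1591.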
